A study of Mus musculus with 7 samples.

Results

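The proteasome genes described here are those whose probe sets carry a single symbol beginning with Psma, Psmb, Psmc, Psmd or Psme in the platform annotation. They number 43 genes of the 12393 that have a probe set with 1 symbol, and they are covered by 76 probe sets. Each gene was represented by the probe set with the highest mean signal over all 7 arrays. All 43 passed the filter on dim probe sets, among 8077 genes tested, and all were above background on the 7 arrays. By known role, 18 encode the core particle, 9 the base and 8 the lid of the regulatory particle, 3 separate activators and 3 chaperones that assemble the base. The symbols also take in Psmc3ip and Psme3ip1, named as interactors of proteasome proteins and not parts of the complex. A probe set listed under both Psme2 and Psme2b has several symbols and was not used.

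RNA was compared between Lkb1 KO mice (4 samples, numbers 4 to 7) and Lkb1 WT mice (3 samples, numbers 5 to 7), so that the question is how these blood progenitors respond early to losing Lkb1, the kinase encoded by Stk11. KO mice were Lkb1 L/L rosa26CreERT2, in which the tamoxifen-activated recombinase is driven from the broadly expressed Rosa26 locus, and WT mice were Lkb1 L/L without Cre. The strain was C57BL/Ka-CD45.2:Thy-1.1 in both groups. All mice received tamoxifen for 5 days, and cells were taken 1 day later, so both groups carry the floxed alleles and the drug, and Cre was present in KO mice alone. Per the labels, 15000 to 20000 LSK cells, which lack lineage markers and carry Sca-1 and c-Kit, were sorted per sample from femoral and tibial marrow and about 10 ng of RNA was amplified. The age of the mice is not given in the labels, nor whether samples are from different animals, so the p-values reflect only how these samples vary, a spread that could be technical.

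The proteasome is the protease that degrades proteins tagged with ubiquitin. Its core is a barrel of alpha and beta rings with the active sites on the inner beta subunits, and its regulatory particle has a base, whose ATPases unfold the substrate and open the core, and a lid, which removes ubiquitin. In blood cells and after interferon, the catalytic beta subunits Psmb5, Psmb6 and Psmb7 are partly replaced by Psmb8, Psmb9 and Psmb10, which form the immunoproteasome and favour peptides for presentation by class I molecules. The transcription factors Nfe2l1 and Nfe2l2 are known to bind antioxidant response elements in promoters of proteasome genes.

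The 250 bases before the annotated start are shown for the 4 genes that passed the test, Psmc5, Psmc1, Psmd6 and Psma7, and for Psmb5, a catalytic subunit whose promoter holds the element searched for. They come from RefSeq on build GRCm38.p6 and are written 5′ to 3′ on the strand of the gene. Capitals mark matches, on either strand, to TGACNNNGC, the core of the antioxidant response element, or to CCAAT, the box bound by the factor NF-Y, and the windows of Psmc5 and Psmd6 held neither.
Psmc5, chr11:106255935-106256184, plus strand: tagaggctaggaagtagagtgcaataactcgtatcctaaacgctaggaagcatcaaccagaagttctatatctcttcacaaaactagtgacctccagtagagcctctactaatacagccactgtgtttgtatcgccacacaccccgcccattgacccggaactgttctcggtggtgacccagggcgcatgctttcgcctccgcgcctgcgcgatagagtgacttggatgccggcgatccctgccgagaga
Psmc1, chr12:100109952-100110201, plus strand: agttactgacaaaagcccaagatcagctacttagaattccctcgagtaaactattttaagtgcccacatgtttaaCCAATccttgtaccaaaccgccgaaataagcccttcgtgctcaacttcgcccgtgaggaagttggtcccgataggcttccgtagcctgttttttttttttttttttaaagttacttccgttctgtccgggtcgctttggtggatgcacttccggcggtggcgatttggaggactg
Psmd6, chr14:14120946-14121195, minus strand: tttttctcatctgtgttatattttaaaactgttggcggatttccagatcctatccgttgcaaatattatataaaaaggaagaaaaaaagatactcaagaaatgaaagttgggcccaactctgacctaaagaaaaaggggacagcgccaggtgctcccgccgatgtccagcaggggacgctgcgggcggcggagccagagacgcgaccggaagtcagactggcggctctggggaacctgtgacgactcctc
Psma7, chr2:180042465-180042714, minus strand: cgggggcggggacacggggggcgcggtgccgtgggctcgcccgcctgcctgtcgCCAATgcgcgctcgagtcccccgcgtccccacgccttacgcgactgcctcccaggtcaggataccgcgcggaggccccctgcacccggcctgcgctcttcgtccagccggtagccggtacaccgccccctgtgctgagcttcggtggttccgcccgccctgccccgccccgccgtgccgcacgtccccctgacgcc
Psmb5, chr14:54617996-54618245, minus strand: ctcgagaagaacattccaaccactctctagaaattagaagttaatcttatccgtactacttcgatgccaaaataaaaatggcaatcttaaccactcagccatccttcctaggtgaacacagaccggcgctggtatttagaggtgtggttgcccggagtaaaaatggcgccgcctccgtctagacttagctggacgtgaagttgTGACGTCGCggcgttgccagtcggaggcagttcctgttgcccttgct

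A full promoter window from RefSeq, from 250 bases before to 50 after the start, was available here for 36 of the 43 genes. The 7 without one were Psma8, Psmb1, Psmb2, Psmb7, Psmc3, Psmd3 and Psmd7. TGACNNNGC was present in 6 of the 36 genes (16.7%), against 17.1% of 6636 tested genes with a window and 14% of 27018 genes. Those 6 were Psmb5, Psmb6, Psmc6, Psmd12, Psmd9 and Psme4, none of which passed the test. CCAAT was present in 15 of the 36 (41.7%), against 42.9% of the tested genes, among them Psmc1 and Psma7. The interferon-stimulated response element, searched as GAAA, any 2 bases and GAAA again, was present in 4 (11.1%), against 3.78% of the tested genes. These were Psmb3, Psmd4, Psmd9 and Psme1, and the windows of the immunoproteasome genes Psmb8, Psmb9 and Psmb10 held no match. The motifs were counted once per gene, in any of its windows and on both strands, and overlap between motifs was allowed. Psma6, Psmc2 and Psme3ip1 each had an additional window.

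All values are normalized signal units, quantile-normalized across the arrays, and differences are log2(signal + 16) in KO minus WT. Of the 43 genes, 4 were higher in KO (9.3%) and 0 lower by limma at an adjusted p under 0.05, where 2.48% of all genes tested were higher and 2.88% lower. At an unadjusted p under 0.05, 15 were higher (34.9%) and 1 was lower, against 11.8% and 13.6% of all genes. All KO samples lay above all WT samples for 16 genes (37.2%), and below them for 2, Psmd7 and Psmd10, against 11.4% and 12.7% of all genes. The difference was above 0 for 38 of the 43, against 47.7% of all genes. The median over the 43 was 0.22 (1.16-fold), with quartiles of 0.10 and 0.33, while the median over all genes was -0.02. In bulk samples, a change in RNA per cell and a change in the make-up of the sorted cells cannot be told apart.

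**Figure D1:**
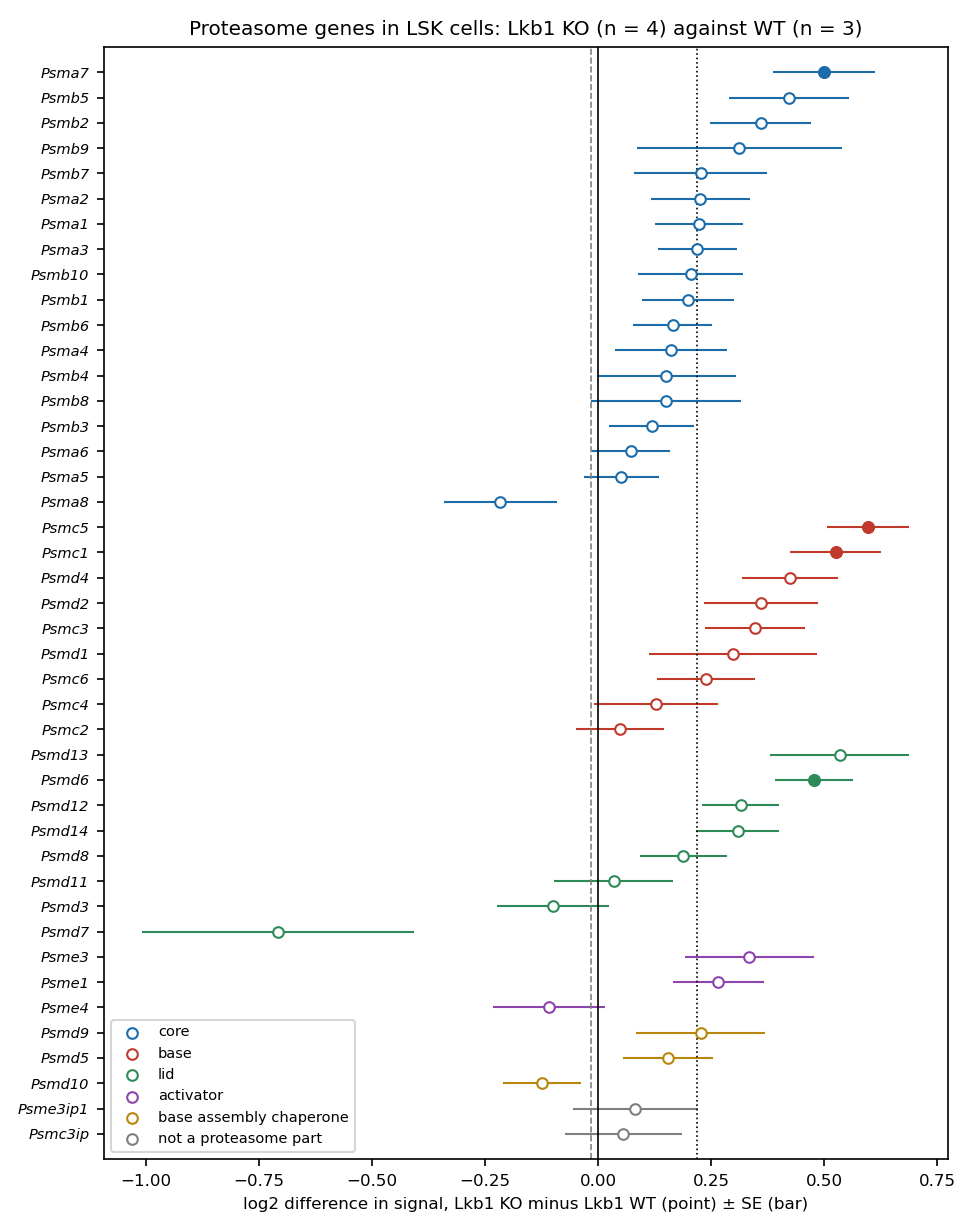
Log2 difference in signal, Lkb1 KO (n = 4) minus Lkb1 WT (n = 3), on the x axis for the 43 genes, grouped by class. Points are differences, bars are 1 SE, filled points passed the limma threshold, the dotted line is the median of the 43 genes (0.22) and the dashed line that of all genes tested (-0.02).

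The 4 calls depended on which samples were included. With 1 array left out in turn, 0 to 2 of the genes passed: 0 without KO 7, WT 6 or WT 7, 1 without KO 4, KO 5 or KO 6 (Psmc5 each time), and 2 without WT 5 (Psmc5 and Psmc1). Over all genes tested, the share higher fell too, from 2.48% with all arrays to between 0.111% and 0.952% in those fits. The median of the 43 stayed between 0.17 and 0.24 in them. Without quantile normalization, on the intensities as deposited, 24 were higher and 0 lower, against 17.0% and 0.520% of all genes, and the median of the 43 was 0.64 where that of all genes was 0.34, a gap of 0.30. On that scale 97% of all calls were higher in KO, against 46.2% after quantile normalization and 76.9% after median centring.

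The arrays themselves differed between the genotypes. The trimmed mean of the deposited signal was 360.4 to 425.9 on KO arrays and 228.6 to 340.5 on WT arrays (two-sided exact permutation p = 0.0286, the smallest that 4 against 3 samples allow). For the Actb controls, signal at the 3' end over that at the 5' end, which tracks the length of the amplified RNA, spanned 11.41 to 12.29 on KO arrays and 12.6 to 13.11 on WT arrays (p = 0.0571 by the same exact test). The ratio did not overlap between the genotypes, so a fit with it as a covariate cannot tell it apart from genotype. In that fit, the median of the 43 was 0.135 and 0 of them passed by limma, as did 0 of all genes tested. The 4 genes called without it were at 0.562 (Psmc5), 0.575 (Psmc1), 0.495 (Psmd6) and 0.419 (Psma7). At an unadjusted p under 0.05, 3 of the 43 were higher (6.98%), against 3.91% of all genes. Across all probe sets the arrays correlated at 0.9779 to 0.9862, and none held the same values as another. The brighter Stk11 probe set read 130.5, 112.0, 87.5 and 71.6 in KO 4 to KO 7, against 185.1, 128.5 and 149.5 in WT 5 to WT 7, a difference of -0.56 ± 0.19 (SE, limma adjusted p = 0.117). The groups overlapped at KO 4. A dimmer Stk11 probe set read 31.8, 53.1, 27.8 and 6 in KO, against 3.4, 5.1 and 26.3 in WT, with overlap and the opposite sign (0.71, exact permutation p = 0.143). For both, the position relative to the floxed exons is not known here.

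The sorted population was checked against marker genes. Of the stem and progenitor list, 6 of 8 genes had a probe set with 1 symbol, and Kit, Cd34, Flt3, Meis1, Cd48 and Hlf were above background on all 7 arrays. Their summed signal ran from 12120 to 13100 on KO arrays and from 14400 to 15330 on WT arrays, with Cd48 higher and Kit and Hlf lower by limma. Ly6a, which encodes Sca-1, had no such probe set. Of the markers of sorted-out or other cells, Cd3e and Cd3g of T cells, Cd79a of B cells and Col1a1 of stroma were at or below background on every array. Others were above it. On all 7 arrays these were Cd79b and Ms4a1 of B cells, Adgre1, Mrc1 and C1qb of macrophages, and Itgax of dendritic cells. The granulocyte and monocyte, erythroid and megakaryocyte genes with a probe set were above it on all 7 as well. Pecam1 of endothelium was above it on 6 arrays, Cd8a of T cells on 5, and Cdh5, Cxcl12 and Cd209a on 4. Ebf1 and C1qa were above it on 3, Ncr1 and Col3a1 on 2, and Cd4 on 1.

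Some markers of other cells moved with genotype. The summed signal of the mature granulocyte and monocyte list ran from 13700 to 19980 on KO arrays and from 34460 to 46930 on WT arrays, and 9 of its 13 tested genes were lower and 0 higher by limma. Not all of the list ran that way. Csf1r, the receptor of the monocyte growth factor, was at 0.75 (adjusted p = 0.0829) and Itgam at 0.40 (adjusted p = 0.0658), both with all KO samples above all WT samples, and Cd14 was at 0.45 with overlap. The megakaryocyte sum did not overlap either, at 2782 to 4354 on KO arrays and 5162 to 5525 on WT arrays, with 1 of 5 genes lower. That gene was Plek, which makes up most of the sum, at 1662.6 to 2886.8 in KO and 3442.3 to 3993.6 in WT. Gp1bb (-0.34) and Itga2b (-0.20) had all KO samples below all WT samples, and Pf4 (-0.28) and Gp9 (0.05) overlapped. For erythroid cells the sum spanned 716.5 to 881 on KO arrays and 997.6 to 1255 on WT arrays, with 1 of 6 genes lower and 1 higher. The dendritic cell sum spanned 2923 to 3587 on KO arrays and 3731 to 4069 on WT arrays, but it is nearly all Flt3, which is also in the stem and progenitor list. The other tested dendritic gene, Itgax, was at -0.02 with overlap, and neither passed. The sums overlapped between genotypes for B cells, macrophages, stroma, and T and NK cells, the last at 43.23 to 64.84 on KO arrays and 37.61 to 45.18 on WT arrays. Whether the make-up of the cells has a part in the proteasome values was not tested.

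The base held 2 of the 4 genes that rose, both ATPases (22.2% of its 9 genes, against 2.48% of all genes tested). Psmc5, an ATPase of the base ring, read 232.1, 220.7, 233.1 and 228.5 in KO 4 to KO 7, against 153.2, 154.1 and 130.9 in WT 5 to WT 7. The KO samples were close to each other and all above the WT samples. The difference was 0.60 ± 0.09 (SE, 1.51-fold, limma adjusted p = 0.0197), the most positive of the 43. Psmc1, the ATPase whose tail helps to open the gate of the core, read 551.5, 549.6, 512.7 and 551.7 in KO, against 418.6, 332.8 and 366.8 in WT. Its groups did not overlap, and the difference was 0.53 ± 0.10 (SE, 1.44-fold, adjusted p = 0.0287). A second Psmc1 probe set was below background on all 7 arrays, and the mean of both gave 0.27 (adjusted p = 0.136).

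All 9 base genes had a difference above 0, against 47.7% of all genes tested, with a median of 0.35 and a range of 0.05 to 0.60. Psmd4, a receptor for ubiquitin chains, read 595.7, 538.2, 588.4 and 609.9 in KO, against 488.9, 382.5 and 425.1 in WT, with no overlap (0.42, adjusted p = 0.0579). The ATPase Psmc3 also kept its groups apart (0.35, adjusted p = 0.0996). The scaffold subunits Psmd2 (0.36, adjusted p = 0.125) and Psmd1 (0.30, adjusted p = 0.355) and the ATPases Psmc6 (0.24), Psmc4 (0.13) and Psmc2 (0.05) overlapped between genotypes. Psmd1 showed the widest spread of the base, with an SD of 0.31 on the log2 scale in KO.

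In the lid, 1 of 8 genes rose (12.5%, against 2.48% of all genes tested). Psmd6, a structural lid subunit, read 2138.5, 2025.9, 2008.4 and 1872 in KO 4 to KO 7, against 1472.8, 1392.3 and 1451.9 in WT 5 to WT 7. Every KO sample was above every WT sample, and the difference was 0.48 ± 0.09 (SE, 1.39-fold, limma adjusted p = 0.0250). A dimmer Psmd6 probe set did not follow genotype. It read 307.4, 220.4, 2974.8 and 3068.3 in KO 4 to KO 7 and 167.5, 2920.4 and 2747.8 in WT 5 to WT 7, so that KO 4, KO 5 and WT 5 were low and the other 4 arrays high, and the cause was not tested. With the mean of all its probe sets, Psmd6 differed by 0.08 (adjusted p = 0.951) and no longer passed.

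Psmd13, another structural lid subunit, read 448.9, 469.1, 342.2 and 451.4 in KO, against 320.9, 232.1 and 321.3 in WT. KO 6 was the lowest KO sample and still above WT (0.53 ± 0.15, adjusted p = 0.0775). Its second probe set overlapped between genotypes with a difference of -0.04. Psmd12 (0.32, adjusted p = 0.0664) and Psmd14, the enzyme that cuts ubiquitin from substrates (0.31, adjusted p = 0.0852), also kept the groups apart. Psmd8 (0.19), Psmd11 (0.03) and Psmd3 (-0.10) overlapped.

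Psmd7, the inactive partner of Psmd14 in the lid, had the most negative difference of the 43. It read 29.1, 55.7, 13.9 and 59.0 in KO, against 74.5, 62.3 and 70.1 in WT. All KO samples were below all WT samples, but KO 4 and KO 6 set the spread. As deposited, KO 6 read 14.2, next to the background of 13.64 units on that scale. After normalization the difference was -0.71 ± 0.30 (SE, 0.612-fold, limma adjusted p = 0.185). Another Psmd7 probe set gave 0.32 with overlapping groups, so the probe sets of this gene had opposite signs.

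**Figure D2:**
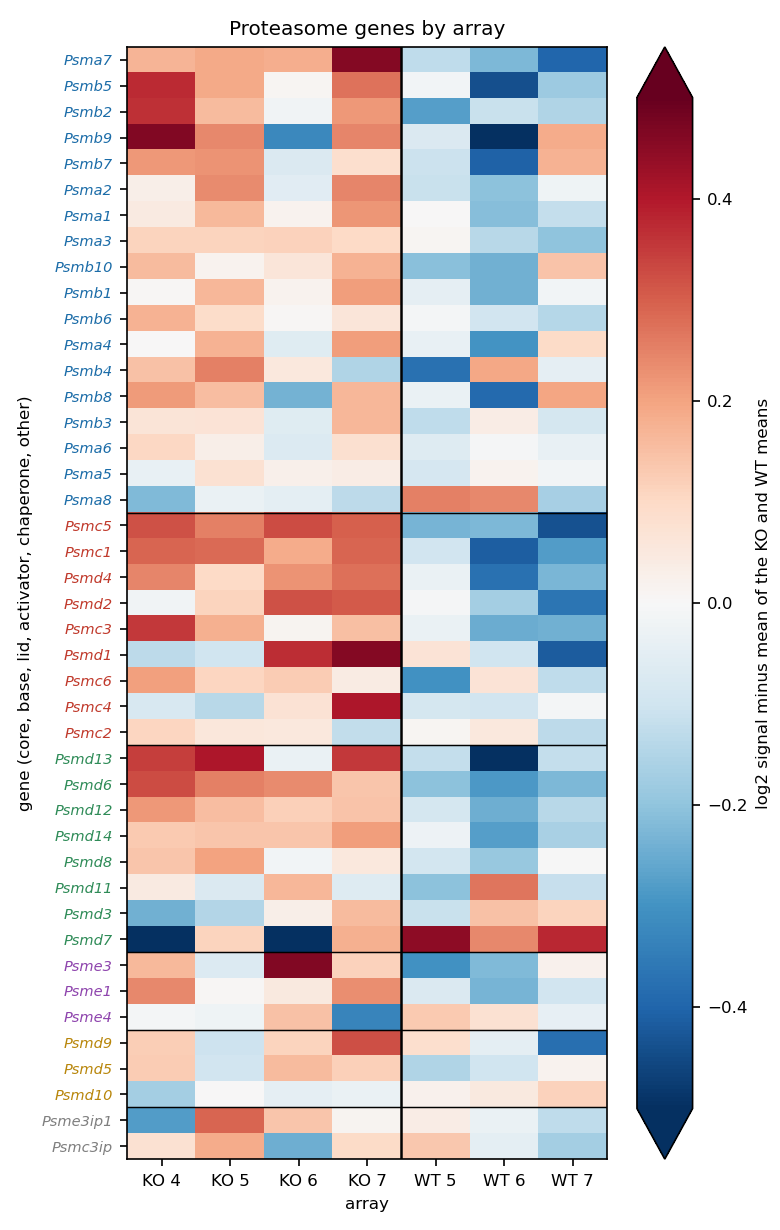
Signal of the 43 genes (rows, by class) on the 7 arrays (columns, KO left of WT), as log2(signal + 16) minus the mean of the KO and WT means, from blue (lower) to red (higher). KO columns are mostly red, and WT 6 is the lowest array for 18 genes. Psmd7, Psma8, Psmd10, Psme4 and Psmd3 had differences below 0, though not on every array.

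The core rose in 1 of its 18 genes (5.56%, against 2.48% of all genes tested). A difference above 0 was seen in 17 (94.4%, against 47.7% of all genes), with a median of 0.20. In 7 all KO samples lay above all WT samples (38.9%, against 11.4% of all genes). Psma7, an alpha ring subunit, read 846.4, 857.3, 853.4 and 1036.1 in KO, against 685.8, 639.0 and 565.8 in WT. The groups did not overlap, KO 7 was above the other KO samples, and the difference was 0.50 ± 0.11 (SE, 1.41-fold, limma adjusted p = 0.0424). Its second probe set differed by 0.68 in the same direction, also with no overlap. The other alpha ring genes were at 0.23 (Psma2), 0.22 (Psma1), 0.22 (Psma3), 0.16 (Psma4), 0.07 (Psma6) and 0.05 (Psma5).

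Psma8, an alpha subunit known from germ cells, was the core gene with a difference below 0. It read 81.8, 95.2, 94.0 and 87.9 in KO, against 119.4, 118.4 and 85.4 in WT, where WT 7 lay among the KO samples (-0.22 ± 0.12, adjusted p = 0.317). Among the structural beta genes, Psmb2 (0.36, adjusted p = 0.0926) and Psmb1 (0.20, adjusted p = 0.265) kept the groups apart, and Psmb4 (0.15) and Psmb3 (0.12) overlapped.

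The catalytic subunits were compared in their pairs. Psmb5, with chymotrypsin-like activity, read 2818.2, 2479.5, 2184.3 and 2621.7 in KO, against 2148.8, 1597.2 and 1914.7 in WT. Its groups did not overlap, though KO 6 lay just above WT 5 (0.42 ± 0.13, adjusted p = 0.0960). Psmb8, which takes its place in the immunoproteasome, read 2592.1, 2484.7, 1895.3 and 2510.5 in KO, against 2184.3, 1700.2 and 2562 in WT. These groups overlapped, with KO 6 and WT 6 low and WT 7 among the highest samples (0.15 ± 0.17, adjusted p = 0.607).

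Psmb6, with caspase-like activity, read 4016.4, 3801.4, 3580 and 3712.5 in KO, against 3536.6, 3336.9 and 3223.9 in WT. KO lay above WT by a small margin (0.17 ± 0.09, adjusted p = 0.280). Psmb9, its immunoproteasome counterpart, read 1093.9, 934.2, 628.4 and 936.3 in KO, against 750.2, 520.9 and 900.0 in WT, with overlap and again KO 6 and WT 6 low (0.31 ± 0.23, adjusted p = 0.423). Psmb7, with trypsin-like activity, read 1048.8, 1054.2, 855.9 and 954.3 in KO, against 833.7, 676.2 and 1016 in WT, and WT 7 lay within the KO values (0.23 ± 0.15, adjusted p = 0.374). Psmb10, which replaces it, read 1789.8, 1620.3, 1672 and 1807.5 in KO, against 1383.2, 1353.2 and 1769.8 in WT, where again WT 7 was as high as KO (0.20 ± 0.12, adjusted p = 0.311).

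Within arrays, the log2 ratio of an immunoproteasome subunit to the standard one removes brightness shared by both probe sets. Only its difference between genotypes can be read, since levels of different probe sets are not comparable. For Psmb8 over Psmb5 the ratio averaged -0.10 ± 0.09 in KO (SD, n = 4) and 0.18 ± 0.21 in WT (SD, n = 3), a difference of -0.27 (two-sided exact permutation p = 0.0286, the smallest possible, and 0.0857 after adjustment over the 3 pairs). All 4 KO ratios were below all 3 WT ratios. The difference was 0.15 for Psmb9 over Psmb6 (exact permutation p = 0.571) and -0.02 for Psmb10 over Psmb7 (exact permutation p = 0.8286), both 0.8286 after adjustment. The medians were 0.23 over the 3 standard catalytic genes and 0.20 over the 3 immunoproteasome genes.

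**Figure D3:**
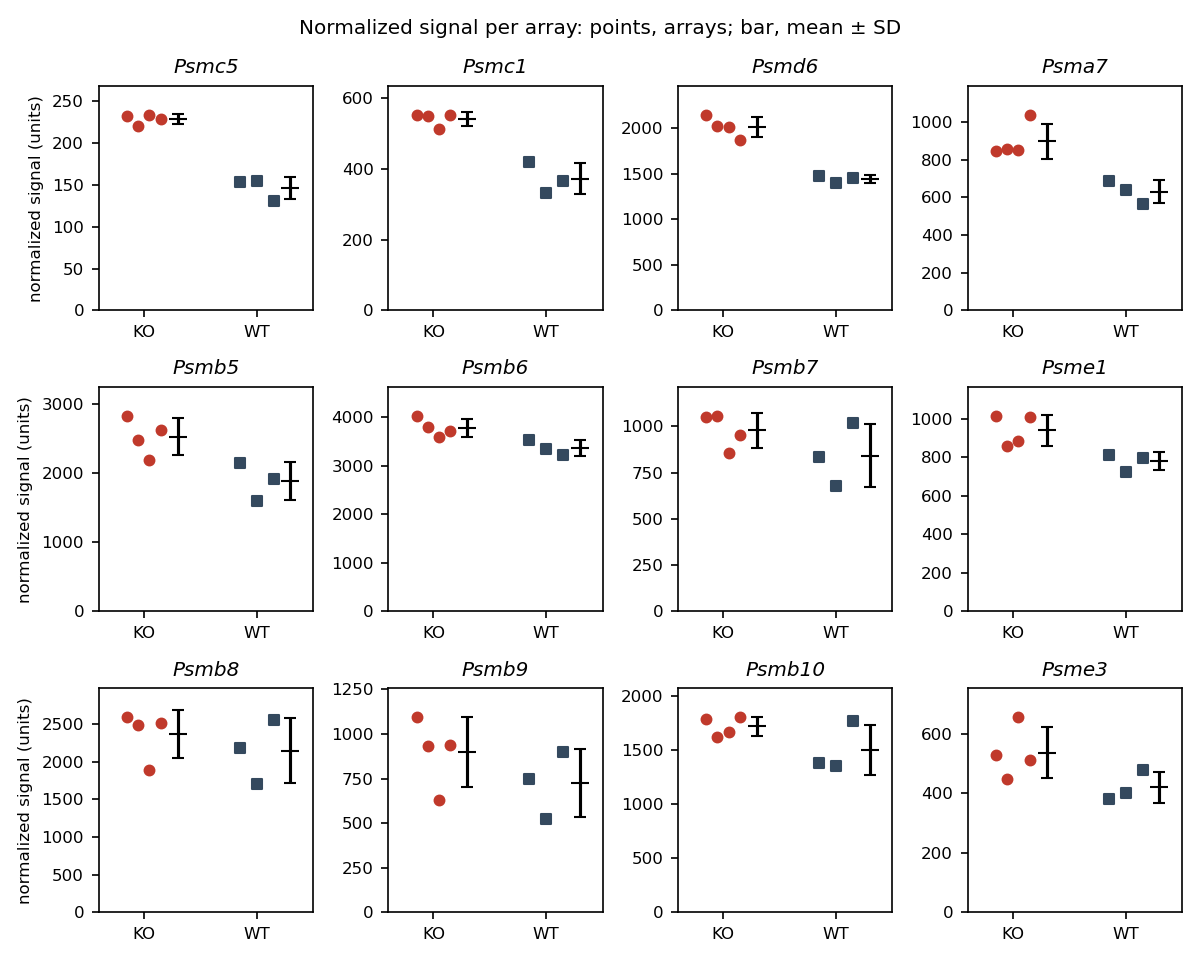
Normalized signal in units (y axis, from 0) on each Lkb1 KO array (circles, n = 4) and Lkb1 WT array (squares, n = 3) for the 4 genes that passed the test, the 6 catalytic subunits and 2 activators, with the mean ± SD as a bar. Psmc5, Psmc1, Psmd6 and Psma7 show no overlap, while Psmb7, Psmb8, Psmb9, Psmb10 and Psme3 overlap.

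None of the 3 activators passed the test. Psme1, a subunit of the interferon-inducible PA28 cap, read 1012.2, 858.3, 883.5 and 1006.6 in KO, against 811.1, 724.8 and 798.3 in WT. The groups did not overlap (0.27 ± 0.10, adjusted p = 0.149). Psme3, the nuclear member of the same family, read 530.4, 449.4, 656.2 and 512.2 in KO, against 380.2, 402.6 and 479.3 in WT, overlapping at KO 5 and WT 7 (0.33 ± 0.14, adjusted p = 0.186).

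A second Psme3 probe set separated the genotypes, at 300.8, 272.6, 324.4 and 381.8 in KO against 166.0, 142.8 and 198.8 in WT (0.86, two-sided exact permutation p = 0.0286, and 0.1347 after adjustment over the 33 probe sets that were not the brightest). Psme4, the nuclear activator PA200, read 1146.1, 1136.8, 1277.7 and 914.3 in KO, against 1265.5, 1217.1 and 1120 in WT. Its groups overlapped (-0.11 ± 0.12, adjusted p = 0.620), and its sign turned with the scaling, to 0.33 as deposited and 0.07 with median centring.

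The base assembly chaperones were Psmd9 at 0.23, Psmd5 at 0.16 and Psmd10 at -0.12, with 0 of 3 past the threshold. Psmd10, known as gankyrin, read 164.4, 187.2, 180.8 and 182.6 in KO, against 190.3, 194.0 and 204.1 in WT. All KO samples were below all WT samples, by a small margin (-0.12 ± 0.09, adjusted p = 0.407), and as deposited the difference was 0.24. The interactors Psme3ip1 (0.08) and Psmc3ip (0.06), a partner in meiotic recombination, overlapped between genotypes.

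Probe sets of the same gene did not always give the same value. Of the 43 genes, 19 had more than 1 probe set, and 24 of the 33 additional probe sets were above the filter. Among these 24, 16 had the sign of the brightest one and 8 the opposite sign. All KO samples lay above all WT samples in 11 and below them in 1, of Psmb1 (-0.36). Over all genes tested, each by its brightest probe set, 11.4% lay above and 12.7% below. The share over the additional probe sets of all genes was not computed. For 7 genes, Psma5, Psma6, Psmb3, Psmb4, Psmc2, Psmc4 and Psmd11, the brightest probe set overlapped at a difference under 0.2 while another separated the genotypes at 0.31 to 0.48. In Psmc2 the brightest read 9127.9, 8798.8, 8770.3 and 7778.7 in KO, against 8508.2, 8770.3 and 7724.3 in WT. Another Psmc2 probe set read 1020.6, 1074.8, 1007 and 1049.9 in KO, against 834.3, 778.3 and 747.2 in WT, with no overlap (0.39). These 7 genes were picked out after their values were seen, and no adjusted exact p over the 33 probe sets was below 0.1347.

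**Figure D4:**
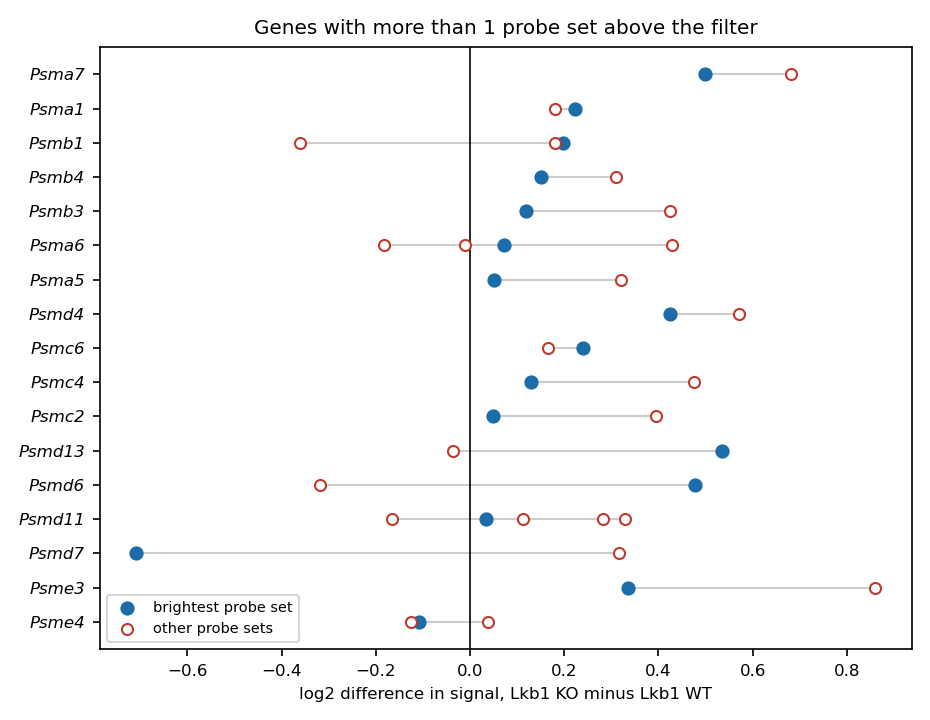
Log2 difference in signal, Lkb1 KO minus Lkb1 WT, on the x axis for genes with more than 1 probe set above the filter (rows). Filled points are the brightest probe set and open points the others. In Psmc2, Psmc4 and Psma6 an open point lies at 0.39 to 0.48 beside a filled point at 0.05 to 0.13.

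Across arrays, the median deviation of the 43 genes from the midpoint of the group means was 0.13, 0.11, 0.05 and 0.16 in KO 4 to KO 7, and -0.07, -0.17 and -0.12 in WT 5 to WT 7. All 4 KO arrays were therefore above all 3 WT arrays in this median. Gene by gene, all KO samples lay above all WT samples for 16 of the 43 (37.2%, against 11.4% of all genes). A KO array was the highest for 39 of the 43 genes and a WT array the lowest for 34. WT 6 alone was the lowest for 18, and KO 7 the highest for 14. Counts of the highest and lowest array were not made over all genes tested, and 4 of the 7 arrays are KO. The median SD between replicates was 0.12 in both groups, against 0.15 in KO and 0.17 in WT over all genes tested. This comparison was not matched for signal.

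Genes that work with the proteasome under other symbols were described from lists. Of 9 genes for core and base assembly chaperones, which include Psmd5, Psmd9 and Psmd10, 8 were tested and 0 passed, with a median of 0.20. Psmg4 (0.34, adjusted p = 0.140), Pomp, which matures the core (0.20, adjusted p = 0.252), Psmg3 (0.21) and Psmg2 (0.21) had the lowest p. Of 7 parts and partners, 6 were tested, the median was 0.09, and Uchl5 rose. Uchl5, a deubiquitinase that docks on the regulatory particle, read 873.7, 1032, 828.4 and 960.3 in KO, against 670.5, 578.1 and 649.9 in WT. Its groups did not overlap (0.53 ± 0.11, limma adjusted p = 0.0327), while another deubiquitinase at the same particle, Usp14, was at 0.04.

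The 7 tested regulators of proteasome genes, of 8 listed, had a median of -0.17 with 0 past the threshold. Nfe2l2, one of the factors that bind antioxidant response elements, read 918.2, 803.0, 899.9 and 788.4 in KO, against 1000.4, 1089.6 and 1192.5 in WT. All KO samples were below all WT samples (-0.35, adjusted p = 0.0802). Nfe2l1, the factor known to raise proteasome genes when the proteasome is inhibited, was at -0.26 (adjusted p = 0.366), and Ngly1, the enzyme that removes its sugars, at -0.28.

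Of 12 ubiquitin and shuttle genes, 6 were tested, 0 passed and the median was 0.13. The shuttle factor Rad23b was at 0.51 (adjusted p = 0.0579). Of 11 genes for class I antigen processing and interferon, 9 were tested, 1 rose and 0 fell, with a median of -0.07. The gene that rose was Erap1, a peptidase that trims peptides in the endoplasmic reticulum. It read 197.1, 190.8, 208.3 and 231.4 in KO, against 133.2, 139.0 and 105.3 in WT, with no overlap (0.66 ± 0.12, adjusted p = 0.0250). The interferon factors Irf8 (0.34, adjusted p = 0.0689) and Irf1 (-0.30, adjusted p = 0.104), and the class I chain H2-K1 (-0.17, adjusted p = 0.245), did not pass.

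**Figure D5:**
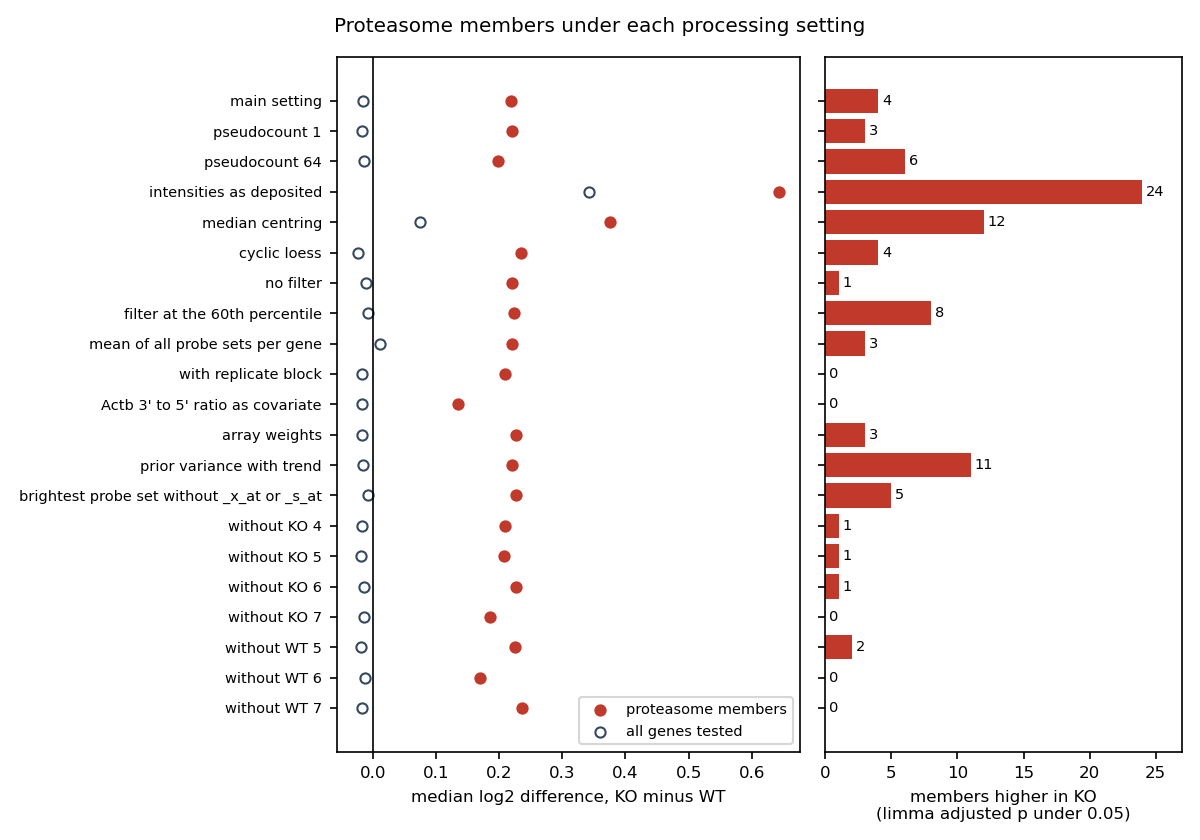
Median log2 difference, Lkb1 KO minus Lkb1 WT (left), for the 43 genes (filled points) and all genes tested (open points), and the number of the 43 higher in KO (right), under each processing setting. The median of the 43 lay between 0.135 and 0.643 over the 20 alternatives and above that of all genes in each, and the number higher in KO lay between 0 and 24.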

How the data were processed

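The values the authors deposited are linear signal intensities, 1 for each array and probe set, for 22690 probe sets including 64 controls. MAS5 is named per the submitters' processing notes, with version and settings not given in the sources used here. Per the labels the array is the 430 2.0 design, while the table holds fewer probe sets than that design, and a gene said to have no probe set here lacks one with 1 symbol in this table. The platform annotation gave 20380 probe sets 1 symbol, 691 several and 1555 none, and 20351 matched the GRCm38.p6 gene table.

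The deposited intensities were quantile-normalized across the 7 arrays, since their trimmed means differed, and analysed as log2(signal + 16), a scale that understates changes of dim genes. The design had assumed intensities scaled between arrays. Probe sets were kept if their mean exceeded the 40th percentile (controls excluded), and the brightest per gene was used, leaving 8077 genes. Background was the 95th percentile of 27 control probe sets for transcripts not added (189 readings), 13.64 units of deposited intensity. Arrays were counted as above background on that deposited scale. Genotypes were contrasted by limma 3.58.1 under R 4.3.3 with 5 residual degrees of freedom. P-values were adjusted over all genes tested by Benjamini-Hochberg, at a threshold of 0.05, and the script was tested on simulated data. Single values used two-sided exact permutation over 35 splits. The number of arrays limits precision.

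The genes and lists were chosen with earlier results of these data known. Values per sample were given for genes past the threshold, the 6 catalytic subunits, the activators and the 3 most positive and 3 most negative differences, with up to 4 genes of lowest p per list; any other gene was picked once its values were known. Alternative settings changed the pseudocount, scaling, filter, probe set choice, prior variance, array weights, replicate block, the Actb ratio and each array left out. Motif searches used Python 3.11.15.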

Additional observations from a re-analysis of the deposited data

Results flagged for a closer look

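Dixon's ratio, the gap of the highest or lowest array to its nearest neighbour over the whole range, passed its 95% critical value among the 4 KO arrays for 6 of the 43 genes. Chance alone passes it in about 1 in 20 groups. In KO 7 the highest values were those of Psma7, at 1036 units against 846.4 to 857.3 on the other KO arrays, and Psmd14, at 4190 against 3975 to 3997. In KO 6 the lowest were those of Psmb8, at 1895 against 2485 to 2592, Psmc1, at 512.7 against 549.6 to 551.7, and Psmd13, at 342.2 against 448.9 to 469.1. In KO 5 the lowest was that of Psmd5, at 897.1 against 1044 to 1071.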

How the results depend on the processing

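Of the 43 genes, 0 were lower in KO under any of the 20 alternatives. The number higher, 4 in the fit reported, was 24 as deposited (17.0% of all genes higher), 12 with median centring (6.79%), 1 with no filter (0.226% of 12393 genes), 8 with a filter at the 60th percentile (6.10%, with 41 of the 43 tested), 11 with a trend in the prior variance (5.55%), and 0 with the Actb ratio as a covariate (0 of all genes), where 2.48% of all genes were higher in the fit reported. It was 3 with a pseudocount of 1 (2.13% of all genes higher), 6 with 64 (4.01%), 4 with cyclic loess (2.28%) and 3 with array weights (1.94%). Without probe sets marked as cross-hybridizing, an alternative chosen after seeing the data, it was 5 (2.51%). With the mean of all probe sets it was 3 (2.05%), with 42 of the 43 tested. There Psma7 and Psmc5 were kept, Psmd4 joined, and Psmd6 at 0.0799 and Psmc1 at 0.268 were lost. The median log2 difference was 0.643 as deposited, 0.376 with median centring and 0.135 with the Actb covariate, and otherwise moved by less than its spread between arrays. Leaving out 1 array gave 0 to 2 genes higher and medians of 0.17 to 0.237, and 9 to 77 genes higher and 35 to 115 lower over all genes, against 200 and 233 with all arrays. The number of genes or samples tested also differs in some of these settings, and the cause of these shifts was not tested.

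The replicate numbers 5 to 7 occur in both groups. Samples with the same number correlated in their deviations at 0.0513, 0.0792 and 0.0576, so the numbers were not taken as pairs, though each KO sample with a number in common correlated best with its own. With the replicate block, 0 of the 43 genes were higher by limma (11, or 25.6%, at an unadjusted p under 0.05, against 9.41% of all genes), the median was 0.21, and over all genes 0 were higher and 1 lower.

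Signs reversed for single genes, none of them past the threshold in the fit reported. As deposited, Psma8 was at 0.0888, Psmd3 at 0.263, Psmd10 at 0.239 and Psme4 at 0.335. With median centring Psme4 was at 0.0671, and with the mean of all probe sets Psma1 was at -0.0105. With the Actb covariate, Psma6 was at -0.0903, Psmb3 at -0.0753, Psmd11 at -0.08, Psme4 at 0.135 and Psmc3ip at -0.0807. With 1 array left out, the difference ranged from -5.44e-05 to 0.188 for Psme3ip1, -0.0586 to 0.174 for Psmd11, -0.00654 to 0.284 for Psmb8, -0.00426 to 0.0966 for Psmc2 and -0.0158 to 0.147 for Psmc3ip. Of the 4 genes called, Psmc5 passed in 4 of the 7 such fits, Psmc1 in 1, and Psmd6 and Psma7 in 0.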

Other observations

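Of the 43 genes, 13 were lowest within both groups on the arrays numbered 6: Psma1, Psma2, Psma4, Psmb5, Psmb7, Psmb8, Psmb9, Psmc1, Psmc3, Psmd7, Psmd8, Psmd12 and Psmd13. Among them, Psmb7, Psmb8 and Psmb9 were at 855.9, 1895.3 and 628.4 units in KO 6 and 676.2, 1700.2 and 520.9 in WT 6. Each of these 3, and Psma2, Psma4, Psmd8 and Psmd13, was highest of the WT arrays in WT 7. The pattern was noticed after the values were seen, it was not counted over all genes tested, and it is not confined to the catalytic genes.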
